A study of Homo sapiens with 15 samples.

Results

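The bromodomain inhibitors RVX208 and OTX015 were compared directly with each other in MV4-11, a human acute myeloid leukemia cell line. The comparison took the 3 arrays titled RVX208 and the 3 arrays titled OTX015, which are 6 of the 15 arrays in the series, and covered 14812 named genes. RVX208 was given at 5 uM and OTX015 at 300 nM, each for 24 h, so a difference between the arrays belongs to a compound together with its dose, and compound and dose cannot be told apart. The 3 arrays of cells given DMSO, the vehicle, served as the reference for direction, and entered the estimate of the spread. The other 6 arrays are of cells given DW71177 or DW71374 at 300 nM. They entered that estimate, the choice of the feature that stands for a gene, and alternatives that use all 15 arrays. MV4-11 is known for a KMT2A-AFF1 fusion and an internal tandem duplication of FLT3, and all 5 groups share this background. Cells were plated as 3 wells a treatment, and nothing says whether the wells were separate cultures, so p-values reflect the variation among these arrays alone, possibly a technical one.

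Proteins of the BET family bind acetylated lysines on chromatin through a pair of bromodomains and help the elongation kinase P-TEFb release RNA polymerase II at active genes. OTX015 (birabresib) binds both bromodomains of each BET protein. RVX208 (apabetalone) prefers the second bromodomain, and was developed for its effect on apolipoprotein A1. In acute myeloid leukemia lines BET inhibition is known for lowering MYC and BCL2 and for raising HEXIM1, an inhibitor of P-TEFb.

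Values are log2 signals of a whole-transcript array, so a difference of 1 is a doubling of signal, and each is given as RVX208 minus OTX015 unless said otherwise. Array medians over all 44629 features lay between 3.72 and 3.79 in all 15 arrays. Over the genes, each array correlated with the others of its group at 0.992 or more. The number of arrays, 3 a group, limits the precision. Members of gene lists that are named beyond the rule given with the processing, such as NOP16, WDR43, GINS1, CDT1, TTK, DHCR7, FOSL1, ACSL1, MAP1LC3B, CCL3 and CXCL8, were chosen as examples after their values were seen. Of 9 measured markers of the myeloid line, 7 had a mean of at least 5, among them LYZ, TYROBP, CD68 and FLT3, while MPO and ANPEP were dim at 4.11 and 3.87 with RVX208. The mean level of 9 lymphoid markers lay between 4.45 and 4.47 on the RVX208 arrays and between 4.37 and 4.48 on the OTX015 arrays, and that of 9 epithelial and stromal markers between 3.73 and 3.86 and between 3.67 and 3.79. One member of each of these lists differed, NKG7 by 0.61 and LUM by 0.44, and the part of other cells in the results was not tested.

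With RVX208 at its dose, the expression of MV4-11 cells lay apart from that with OTX015 at 2153 of 14812 genes (14.5% called by limma, adjusted p under 0.05 after Benjamini-Hochberg adjustment over all genes). Signal was higher with RVX208 at 1405 genes (9.49%) and lower at 748 (5.05%). Most differences were small: the median size among called genes was 0.36, a 1.29-fold difference in signal, and 21 genes were at least 2-fold higher and 8 at least 2-fold lower. The genes higher with RVX208 included MYC, genes of ribosome assembly and DNA replication, sterol and fatty acid enzymes, and MPEG1, CCR2 and CSF1R. Other monocyte genes went both ways, with IRF8 higher and CD86 and CD68 lower, or were not called. Genes lower with RVX208 included the alpha-arrestins ARRDC4 and TXNIP, HEXIM1, IER3 and TNF. IER3 and TNF are from a list of inflammatory genes whose other members went both ways or were not called.

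The arrays of the compounds did not overlap at 4334 genes (29.3%), and at 2134 of the 2153 called ones. For 13032 genes (88.0%), called or not, the 95% interval bounded the difference to less than 1.5-fold in both directions. Against DMSO, RVX208 differed at 966 genes (6.52%) and OTX015 at 3800 (25.7%), in the same limma fit. The RVX208 count fell to between 564 and 636 when any 1 DMSO array or any 1 RVX208 array was left out. Both counts share their arrays with the direct comparison and serve to show on which side of DMSO a compound lies. Over the 2153 called genes the median size of the change from DMSO was 0.17 with RVX208 and 0.51 with OTX015.

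**Figure D1:**
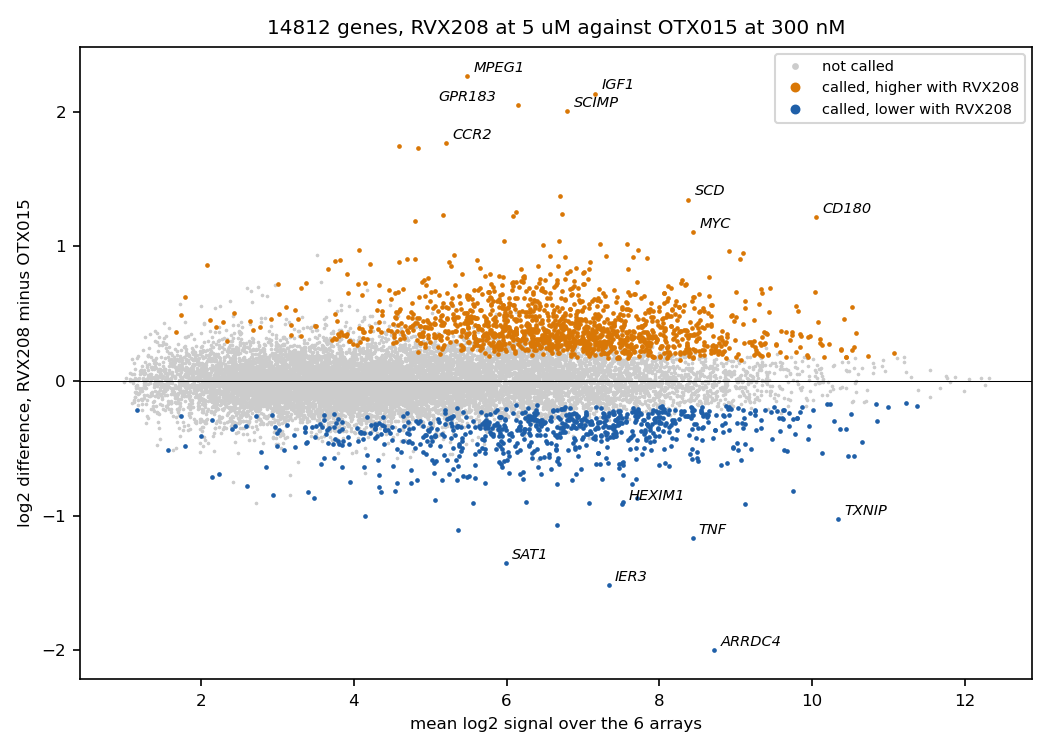
Difference in log2 signal, RVX208 at 5 uM minus OTX015 at 300 nM (vertical), against the mean log2 signal over the 6 arrays (horizontal) for 14812 genes, with 1405 called higher in orange, 748 called lower in blue and the rest in gray. MPEG1 stands highest at 2.27 and ARRDC4 lowest at -2.00.

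MPEG1 and CCR2 were among the genes with the largest positive differences; the list of monocyte and macrophage genes as a whole had a median of 0.03, with 10 of 19 not called. MPEG1, which encodes a pore-forming protein of macrophages, gave 6.62 on each of the 3 RVX208 arrays, the same deposited value each time, against 4.63, 4.20 and 4.22 with OTX015. The DMSO arrays read 8.65, 8.65 and 8.75, so RVX208 lay between the others with no overlap. Its difference was 2.27 ± 0.10 (SE, 3 arrays a group), or 4.81-fold (limma adjusted p = 1.4e-08). Values identical in all 3 arrays occurred at 59 genes with RVX208, 29 with OTX015 and 62 with DMSO, and the reason was not tested. CCR2, the receptor that draws monocytes to the chemokine CCL2, gave 6.11, 6.19 and 5.96 with RVX208 and 4.14, 4.40 and 4.42 with OTX015. In DMSO it stood at 8.20, 8.29 and 8.31, and the compounds differed by 1.77 ± 0.10 (SE; limma adjusted p = 9.7e-08). Both compounds had lowered CCR2, to different depths: RVX208 lay 2.18 and OTX015 3.94 below DMSO.

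IGF1, a growth factor, and SCIMP, a membrane adaptor of antigen-presenting cells, lay closer to DMSO with RVX208. IGF1 read 8.22, 8.19 and 8.27 with RVX208, 6.04, 6.01 and 6.22 with OTX015, and 8.88, 9.07 and 8.90 with DMSO. The difference between the compounds was 2.13 ± 0.08 (SE), 4.39-fold (limma adjusted p = 1.7e-09). SCIMP read 7.80, 7.83 and 7.77 with RVX208 and 5.78, 5.76 and 5.84 with OTX015, beside 8.16, 8.13 and 8.13 with DMSO. That gap was 2.01 ± 0.06 (SE; limma adjusted p = 1.4e-10), while RVX208 itself lay 0.34 below DMSO (limma adjusted p = 0.0023). GPR183, a receptor for oxysterols that guides immune cells, gave 7.29, 7.13 and 7.11 with RVX208 against 5.06, 5.06 and 5.26 with OTX015 and 8.14, 8.14 and 8.29 with DMSO. Its groups were fully separate, with a difference of 2.05 ± 0.11 (SE; limma adjusted p = 6.8e-08).

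The other genes in the first 10 were TGM5 (a transglutaminase, 1.74), OCSTAMP (a protein of osteoclast fusion, 1.73), ENPP2 (autotaxin, which makes lysophosphatidic acid, 1.37), SCD (the stearoyl-CoA desaturase, 1.35) and the noncoding LINC00996 (1.26). Limma adjusted p-values for these 5 ran from 1e-08 to 5e-05. ENPP2 showed the tightest RVX208 arrays of the 5, at 7.39 on each, against 6.07, 5.96 and 6.02 with OTX015. SCD was read by 2 features of the array, with differences of 0.90 and 1.35. All 10 genes had their RVX208 mean between the DMSO and OTX015 means.

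On the other side, ARRDC4 stood out. This alpha-arrestin, which like TXNIP restrains glucose uptake, gave 7.71, 7.76 and 7.71 with RVX208 and 9.71, 9.71 and 9.75 with OTX015. DMSO arrays read 6.87, 7.07 and 6.97, so both compounds lay above the vehicle and OTX015 further. The difference was -2.00 ± 0.07 (SE; limma adjusted p = 1.1e-09). IER3, an early response gene that affects survival under stress, gave 6.66, 6.44 and 6.64 with RVX208, 8.07, 8.05 and 8.16 with OTX015, and 6.14, 6.17 and 6.06 with DMSO. It lay 1.51 lower with RVX208 (difference -1.51 ± 0.08, SE; limma adjusted p = 7e-08), and its 11 features gave differences from -1.51 to -0.46, all called. SAT1, the enzyme that acetylates polyamines for breakdown, read 5.38, 5.36 and 5.21 with RVX208 and 6.67, 6.66 and 6.67 with OTX015, against 4.75, 4.32 and 4.91 with DMSO. Its difference was -1.35 ± 0.13 (SE; limma adjusted p = 1.7e-05).

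TNF, the inflammatory cytokine, followed another course. It gave 8.02, 7.99 and 7.56 with RVX208, 7.96, 8.05 and 7.92 with DMSO and 8.77, 9.17 and 9.12 with OTX015. The RVX208 and DMSO arrays overlapped (difference from DMSO -0.12, limma adjusted p = 0.75), and OTX015 lay above both. Between the compounds TNF differed by -1.16 ± 0.15 (SE, limma adjusted p = 0.00019), and the 8 features of the gene gave nearly the same value. Whether the features of TNF, or those of IER3, share probes was not checked, so they may not be separate readings.

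The remaining genes in this group of 10 were EFR3B (-1.11), the noncoding MIR124-1HG (-1.07), TXNIP (-1.03), HEXIM1 (-0.91), NCF1B (-0.91) and KIAA0513 (-0.91). Limma adjusted p-values for these ran from 1.2e-06 to 0.0032. At EFR3B the RVX208 and DMSO arrays overlapped (difference from DMSO 0.41, limma adjusted p = 0.23). NCF1B is a pseudogene nearly identical to NCF1, which encodes a subunit of the phagocyte oxidase, and probes could read either, so its identity is uncertain.

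**Figure D2:**
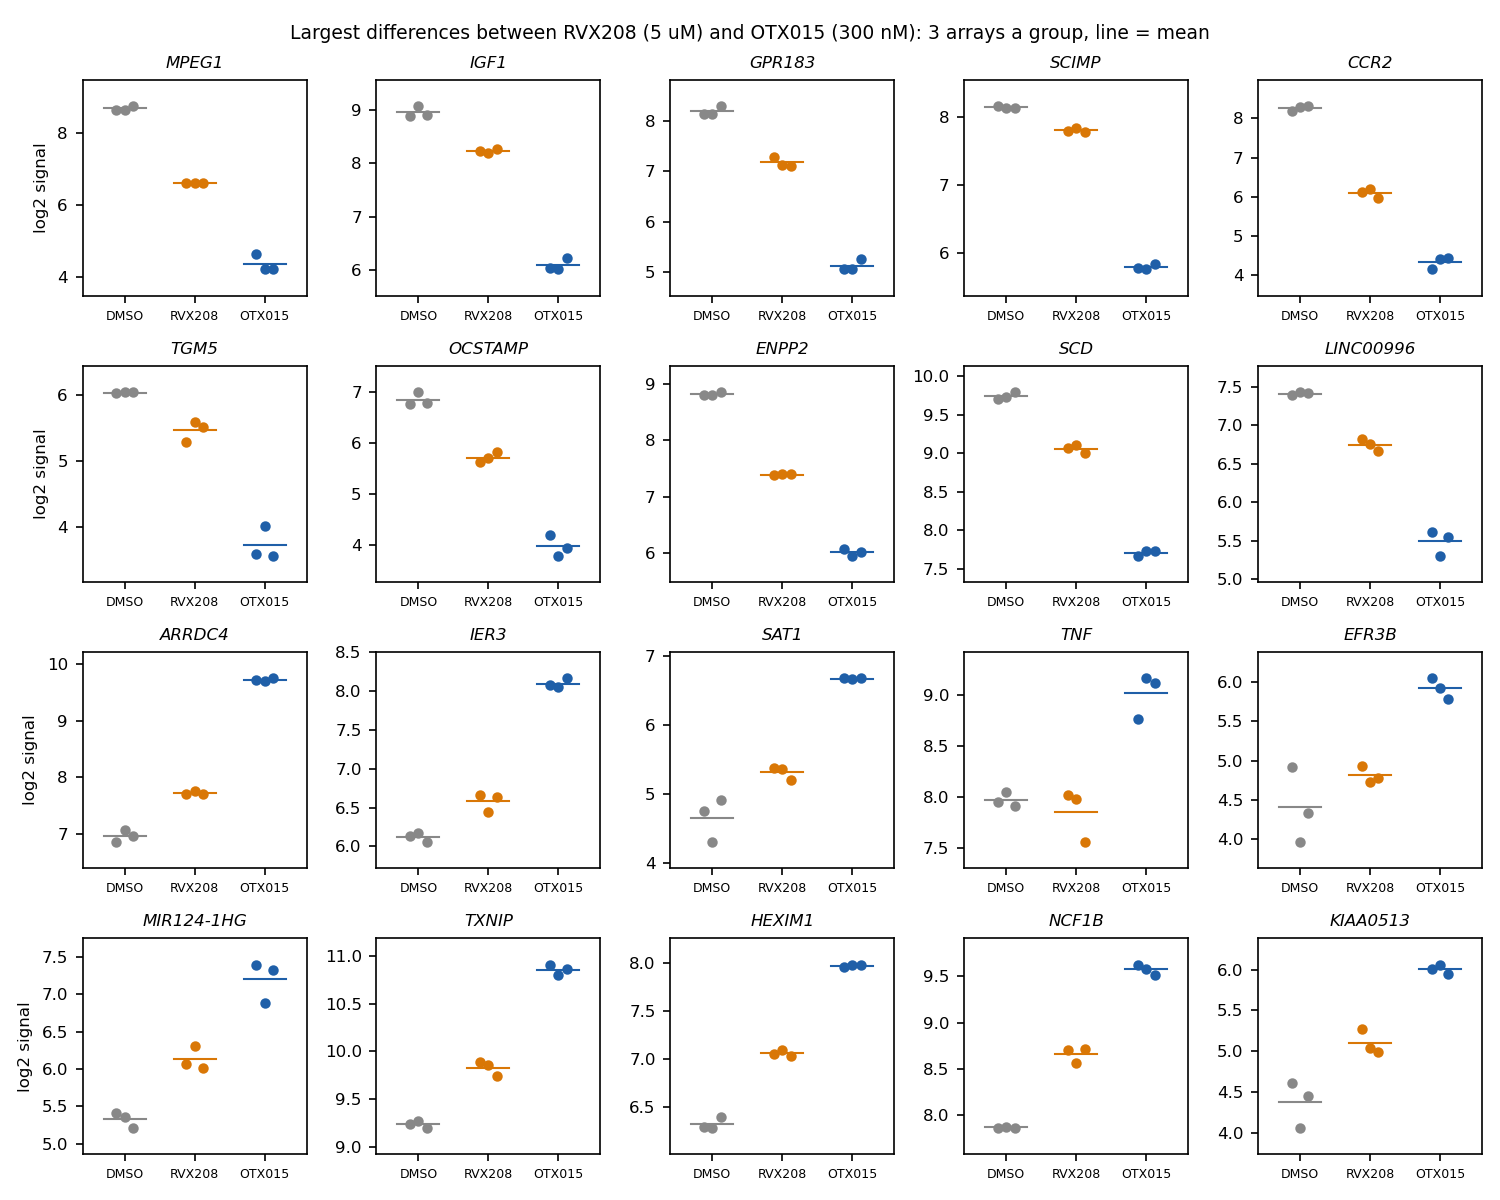
Log2 signal on each array (points) and group mean (lines) for the 10 genes with the largest positive (MPEG1 to LINC00996) and the 10 with the largest negative difference (ARRDC4 to KIAA0513), for DMSO in gray, RVX208 in orange and OTX015 in blue, each panel with its own vertical axis. RVX208 means lie between the other means in every panel but TNF. The RVX208 and DMSO arrays overlap at TNF and at EFR3B.

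Of the BET and P-TEFb genes, 8 of 14 listed were measured. Of these, 2 differed (25%, beside 14.5% of all genes), both lower with RVX208. HEXIM1, which holds P-TEFb inactive, read 7.05, 7.09 and 7.03 with RVX208, 7.96, 7.97 and 7.98 with OTX015 and 6.28, 6.28 and 6.39 with DMSO. Both compounds raised it, and the gap between them was -0.91 ± 0.07 (SE; limma adjusted p = 2.1e-06). A second feature of HEXIM1 gave a smaller gap of -0.35, so the mean of the 2 features was -0.63. BRD2, itself a BET protein, gave 6.90, 6.91 and 7.0 with RVX208 and 7.27, 7.25 and 7.26 with OTX015 (difference -0.32 ± 0.06, SE; limma adjusted p = 0.0019). For CDK9, the kinase of P-TEFb, the difference was -0.05 (limma adjusted p = 0.61), and for its cyclin CCNT1 0.06 (limma adjusted p = 0.66).

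Genes that BET inhibitors typically lower were higher with RVX208 at 9 of 14 measured (64.3%, beside 9.49% of all genes), with none lower. The median difference was 0.61 beside -0.002 over all genes. Their median change from DMSO was -0.34 with RVX208 and -1.21 with OTX015. The list was drawn up with results of these data known, so its direction is not independent evidence. MYC, a transcription factor that drives growth and ribosome production, read 8.97, 8.98 and 9.04 with RVX208 and 7.89, 7.87 and 7.91 with OTX015, against 9.31, 9.29 and 9.35 with DMSO. The 3 groups were separate, and the compounds differed by 1.10 ± 0.05 (SE), 2.15-fold (limma adjusted p = 2.6e-08). BCL2, the antiapoptotic protein, gave 9.81, 9.80 and 9.78 with RVX208 and 9.12, 9.10 and 9.11 with OTX015, beside 10.28, 10.32 and 10.30 with DMSO, a gap of 0.69 ± 0.05 (SE; limma adjusted p = 8.5e-07). The cell cycle kinase CDK6 (0.48), the receptor KIT (0.91), the chemokine receptor CCR1 (1.24) and FOSL1, a subunit of AP-1 (0.53), were also higher with RVX208.

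CD180, a receptor of the Toll-like family, differed by 1.22 and set RVX208 beside DMSO. It read 10.71, 10.64 and 10.65 with RVX208, 10.63, 10.66 and 10.71 with DMSO and 9.45, 9.48 and 9.42 with OTX015. The RVX208 and DMSO arrays overlapped, and OTX015 lay 1.22 below DMSO (limma adjusted p = 2.3e-09). IL7R, the interleukin 7 receptor, went with both compounds: it read 2.85, 3.40 and 3.15 with RVX208 and 2.64, 2.89 and 3.04 with OTX015, from 4.50, 4.48 and 4.50 with DMSO. Those compound arrays overlapped and the difference of 0.28 did not pass (limma adjusted p = 0.18, 95% interval 0.01 to 0.54). The levels of IL7R are dim. MYB, a regulator of leukemic self-renewal, differed by -0.10 (limma adjusted p = 0.4, 95% interval -0.23 to 0.04). GFI1, a transcriptional repressor, differed by -0.003 (limma adjusted p = 0.99), and HMGA1, a chromatin protein, by 0.02 (limma adjusted p = 0.87).

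The alpha-arrestins were lower with RVX208 at 4 of 6 measured (66.7%, beside 5.05% of all genes), with none higher and a median of -0.58. TXNIP, which binds thioredoxin and restrains glucose uptake, read 9.89, 9.86 and 9.74 with RVX208 and 10.91, 10.80 and 10.86 with OTX015, against 9.23, 9.27 and 9.20 with DMSO (difference -1.03 ± 0.07, SE; limma adjusted p = 1.2e-06). ARRDC3, an adaptor of receptor endocytosis, gave 5.85, 5.86 and 5.71 against 6.64, 6.70 and 6.77, with 4.79, 4.76 and 4.86 in DMSO. ARRDC1 differed by -0.27 (limma adjusted p = 0.0094), and neither ARRDC2 (0.09) nor ARRDC5 (0.01) passed. The median change from DMSO was 0.46 with RVX208 and 0.97 with OTX015.

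Promoters of ARRDC4 and TXNIP are shown because these genes had the largest differences of the family. The glucose-sensing factors MondoA and ChREBP are known to act on both through carbohydrate response elements, which pair motifs of the form CACGNG. Promoter sequences are from RefSeq on GRCh38.p14 and cover the 250 bases before a gene's start. CACGNG, searched on both strands, was found in 4 of 5 alpha-arrestin promoters given (80%) beside 30.3% of 27305 gene promoters. ARRDC2, which did not pass, is one of the 4. The windows are chr15:97960481-97960580 on the plus strand for ARRDC4 and chr1:145996609-145996708 on the minus strand for TXNIP, with matches in capitals, 1 overlapping pair included. Here and in the promoters below, a match describes the letters only, and the 27305 include genes that were not compared here.
ARRDC4: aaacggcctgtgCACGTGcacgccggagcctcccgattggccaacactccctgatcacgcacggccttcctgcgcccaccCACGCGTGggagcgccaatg
TXNIP: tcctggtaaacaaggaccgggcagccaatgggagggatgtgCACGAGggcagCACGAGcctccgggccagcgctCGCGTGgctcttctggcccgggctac

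Ribosome biogenesis and other MYC targets were higher with RVX208 at 19 of 20 measured (95%, beside 9.49% of all genes). None was lower, and the median was 0.51. Their median change from DMSO was -0.24 with RVX208 and -0.72 with OTX015. NOP16, a nucleolar assembly factor, read 6.96, 7.05 and 6.89 with RVX208 and 6.02, 6.18 and 6.31 with OTX015, from 7.44, 7.30 and 7.36 with DMSO (difference 0.80 ± 0.09, SE; limma adjusted p = 6e-05). SRM, the spermidine synthase, gave 10.75, 10.81 and 10.86 against 10.31, 10.25 and 10.21 (difference 0.55 ± 0.06, SE; limma adjusted p = 3.3e-05). RRS1 (0.75), WDR43 (0.67) and NOLC1 (0.62), which act in ribosome assembly, differed the same way. ODC1, the first enzyme of polyamine synthesis and a textbook MYC target, read 9.35, 9.37 and 9.36 with RVX208 and 9.39, 9.45 and 9.46 with OTX015, and its difference of -0.07 did not pass (limma adjusted p = 0.5, 95% interval -0.20 to 0.05).

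MYC binds the E-box CACGTG with its partner MAX. This motif, which reads alike on both strands, was in 4 of 15 promoters given for the list (26.7%), those of HSPD1, LYAR, ODC1 and SRM, beside 7.73% of all 27305. ODC1, which did not pass, is one of the 4. The windows shown for a pair that differed are chr1:11060143-11060242 for SRM and chr4:4290051-4290150 for LYAR (a nucleolar protein, difference 0.59), both on the minus strand, with the motif in capitals.
SRM: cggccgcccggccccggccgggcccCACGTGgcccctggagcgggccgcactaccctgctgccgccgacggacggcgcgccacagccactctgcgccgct
LYAR: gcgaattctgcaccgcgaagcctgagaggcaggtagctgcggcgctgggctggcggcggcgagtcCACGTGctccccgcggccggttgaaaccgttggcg

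DNA replication genes were higher with RVX208 at 19 of 20 measured (95%, beside 9.49% of all genes). None was lower, and the median was 0.60. Their median lay 0.84 below DMSO with OTX015 (change -0.84) and nearer with RVX208 (change -0.21). GINS1, a subunit of the replicative helicase, read 6.99, 7.09 and 7.02 with RVX208, 6.07, 6.33 and 5.91 with OTX015 and 7.41, 7.49 and 7.26 with DMSO. It differed by 0.93 ± 0.09 (SE; limma adjusted p = 2.1e-05). All 6 subunits of the MCM helicase, MCM2 to MCM7, were higher with RVX208, by 0.45 (MCM4) to 0.75 (MCM2). Origin licensing factors CDC6 (0.88) and CDT1 (0.64) did the same. RRM2, the small subunit of ribonucleotide reductase, was the member that did not pass, at 8.14, 8.13 and 8.09 against 8.02, 8.06 and 8.09 (difference 0.06, limma adjusted p = 0.55).

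Mitosis genes showed the same direction at smaller size: 22 of 24 measured were higher with RVX208 (91.7%, beside 9.49% of all genes). None was lower, and the median was 0.35. MAD2L1, of the spindle checkpoint, gave 7.45, 7.42 and 7.24 with RVX208 and 6.66, 6.67 and 6.62 with OTX015, from 7.60, 7.66 and 7.52 with DMSO (difference 0.72 ± 0.08, SE; limma adjusted p = 3.2e-05). Cyclin A2 (CCNA2) differed by 0.49, the checkpoint kinase TTK by 0.47 and topoisomerase TOP2A by 0.37. Of mitotic genes, CDC20 (0.15, limma adjusted p = 0.1) and BUB3 (0.10, limma adjusted p = 0.29) did not pass.

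E2F factors are known to act at replication promoters, and the DREAM complex at mitotic ones through the cell cycle homology region. E2F-like letters (TTTGGCGC, TTTCGCGC or TTTCCCGC, both strands, which may overlap on opposite strands) were in 7 of 17 replication promoters given (41.2%) beside 2.85% of 27305. The homology region TTTGAA, on either strand, was in 12 of 20 mitosis promoters (60%) beside 16.1%. CDC20, which did not pass, is one of the 12. Shown are MCM6 at chr2:135876509-135876608 and MCM3 at chr6:52284855-52284954, both on the minus strand, then BUB1B at chr15:40160961-40161060 on the plus strand and TOP2A at chr17:40418016-40418115 on the minus strand, since each of the 4 genes was called higher. Capitals mark matches.
MCM6: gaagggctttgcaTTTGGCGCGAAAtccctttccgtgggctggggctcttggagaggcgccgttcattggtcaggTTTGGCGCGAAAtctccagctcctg
MCM3: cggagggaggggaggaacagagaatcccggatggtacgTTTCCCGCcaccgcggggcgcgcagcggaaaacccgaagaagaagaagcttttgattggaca
BUB1B: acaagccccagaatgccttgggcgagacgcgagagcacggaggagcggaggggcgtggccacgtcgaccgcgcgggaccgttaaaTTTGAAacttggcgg
TOP2A: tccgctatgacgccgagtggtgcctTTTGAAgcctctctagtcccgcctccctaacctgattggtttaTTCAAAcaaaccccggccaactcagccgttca
Differences of these genes were 0.55 for MCM6, 0.56 for MCM3, 0.45 for BUB1B and 0.37 for TOP2A.

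Most other biosynthetic lists leaned the same way. Mitochondrial ribosomal proteins were higher with RVX208 at 21 of 29 measured (72.4%, beside 9.49% of all genes). None was lower, the median was 0.32, and MRPL3 led with 8.65, 8.72 and 8.75 against 7.89, 7.98 and 8.09. Cytosolic ribosomal proteins leaned this way at smaller size, with all 18 differences positive and a median of 0.09. Of the 18, 2 were called higher, RPS23 (0.27) and RPL6 (0.26), or 11.1%, near the 9.49% of all genes. Without any single RVX208 array, OTX015 array 1 or 3, or DMSO array 2 or 3, 1 or none passed. The count was 4 with a variance trend and 4 of 16 among genes with a mean level of at least 5. It was 0 with the 6 arrays of the compounds fitted alone. Aminoacyl-tRNA synthetases, which charge tRNAs, were higher at 10 of 17 (58.8%, median 0.20), with LARS1 at 0.51 and IARS1 at 0.51. Purine and pyrimidine synthesis genes were higher at 11 of 15 (73.3%, median 0.26), and at 7 of 15 when the 6 arrays of the compounds were fitted alone. PFAS, an enzyme of purine synthesis, read 7.09, 7.08 and 7.15 with RVX208 and 6.10, 6.33 and 6.33 with OTX015 (difference 0.85 ± 0.07, SE; limma adjusted p = 6.7e-06). DHODH, the pyrimidine enzyme of mitochondria, differed by 0.72.

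Cholesterol synthesis and uptake genes were higher with RVX208 at 13 of 18 measured (72.2%, beside 9.49% of all genes). None was lower, and the median was 0.30. TMEM97, a sterol-responsive membrane protein, read 7.67, 7.78 and 7.78 with RVX208 and 6.78, 6.57 and 6.82 with OTX015, beside 8.19, 8.26 and 8.27 with DMSO (difference 1.02 ± 0.07, SE; limma adjusted p = 8.6e-07). The synthesis enzymes MSMO1 (0.76), DHCR7 (0.71) and HMGCS1 (0.61) and the regulator SREBF2 (0.31) were also higher. Fatty acid genes were higher at 6 of 13 (46.2%, beside 9.49% of all genes) and lower at 1. The lower count was 2 without OTX015 array 2 and with quantile normalization or a variance trend. It was also 2 among coding genes alone or those with a mean level of at least 5. FASN, the fatty acid synthase, gave 8.20, 8.19 and 8.24 against 7.26, 7.19 and 7.25, with 8.64, 8.71 and 8.74 in DMSO, and differed by 0.98 ± 0.06 (SE; limma adjusted p = 2.1e-07). ACSL1, which activates fatty acids, went the other way at -0.38 (limma adjusted p = 0.0032).

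Lysosome and autophagy genes were lower with RVX208 at 8 of 20 measured and higher at 1 (45% called, beside 14.5% of all genes). Their median was -0.11. Without RVX208 array 1 or 2 the count of lower ones was 5, and the higher one was not called without RVX208 array 2 or OTX015 array 1 or 3. PSAP, the precursor of the saposins, read 8.73, 8.82 and 8.79 with RVX208, 9.27, 9.32 and 9.28 with OTX015 and 8.17, 8.11 and 8.04 with DMSO, so both compounds lay above DMSO. The gap between them was -0.51 ± 0.06 (SE; limma adjusted p = 0.0001). The protease CTSB (-0.38), the autophagy receptor SQSTM1 (-0.40) and MAP1LC3B, a marker protein of autophagosomes (-0.47), were lower as well. The protease CTSS was the member that was higher, by 0.21.

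Genes of polyamine metabolism were split. The synthases SRM (0.55) and SMS (0.30) were higher with RVX208 and the catabolic SAT1 lower (-1.35), with 8 of 11 not called. The called share was 27.3%, beside 14.5% of all genes. A second member was lower without OTX015 array 2 and with quantile normalization or a variance trend. The same held among coding genes alone or those with a mean level of at least 5. Glycolysis was called at 4 of 9 (44.4%), with the hexokinase HK2 higher (0.37) and HK1 lower (-0.28). Metallothioneins, with 44.4% called, were lower at 3 of 9 measured (MT2A at -0.50, MT1X at -0.45 and MT1E at -0.55) and higher at 1 (MT1M at 0.87). These genes resemble each other closely, so probes may not part them.

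**Figure D3:**
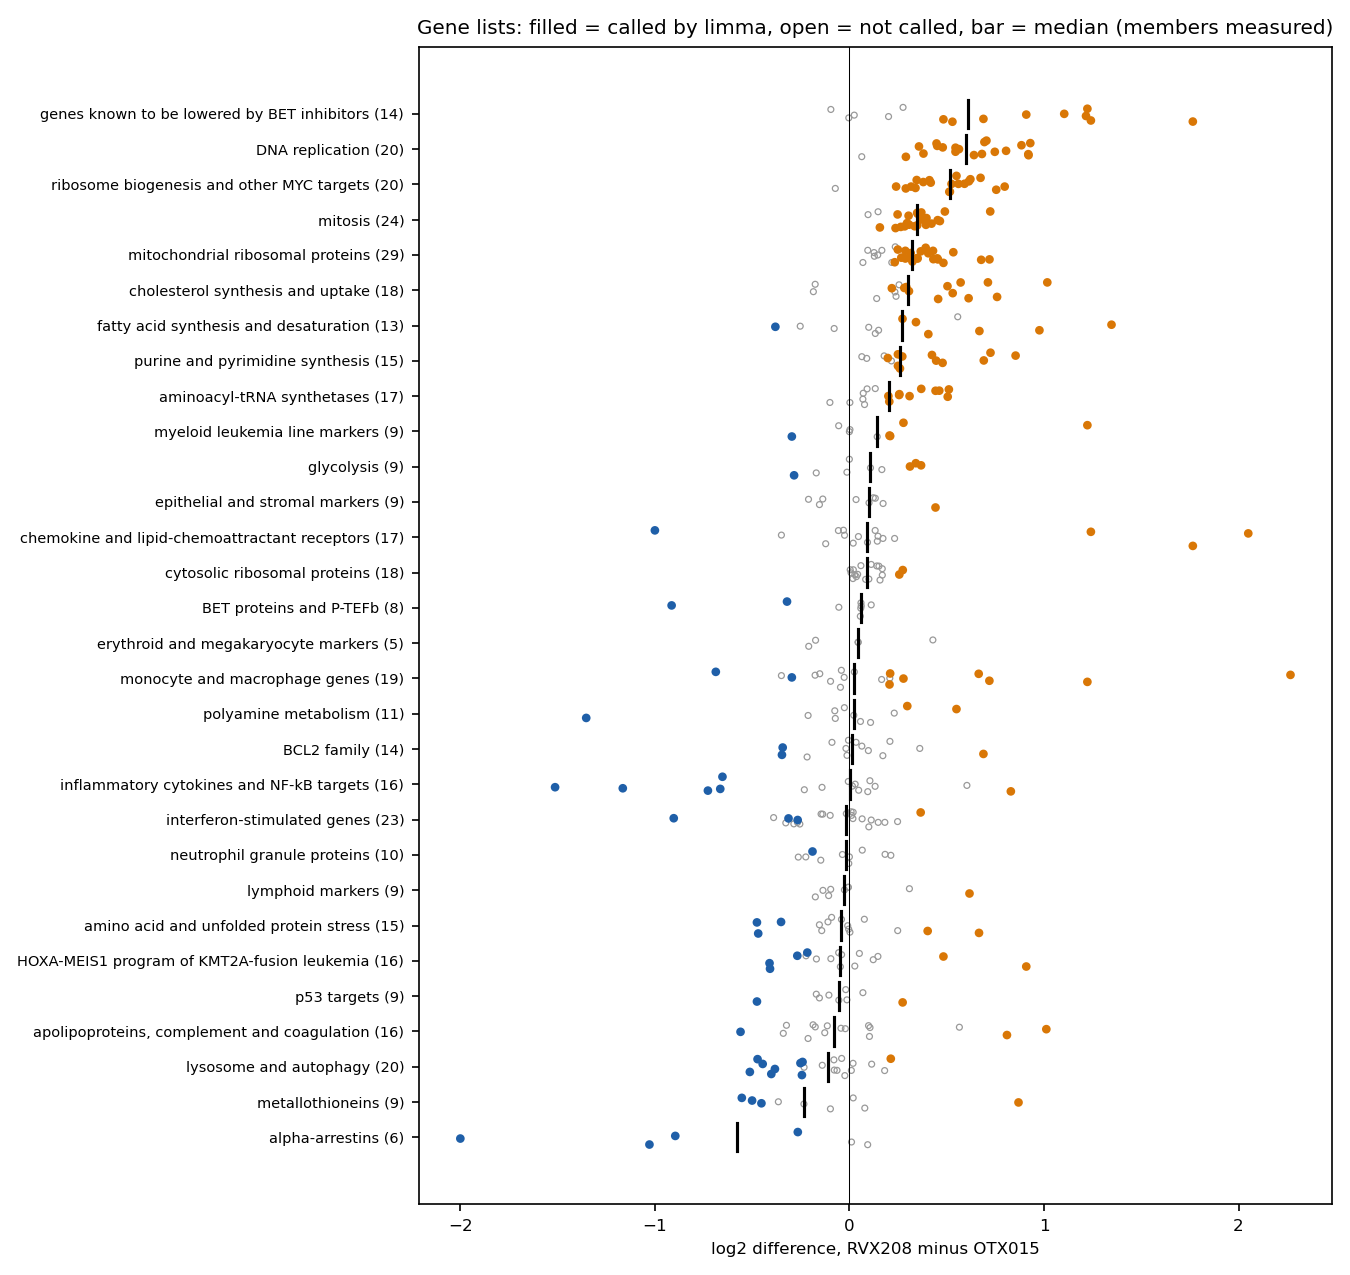
Difference in log2 signal, RVX208 minus OTX015 (horizontal), for each measured member of 30 gene lists with at least 3 measured (vertical, sorted by median, number measured in parentheses), with called genes filled, others open and the median as a bar. Medians run from -0.58 for alpha-arrestins to 0.61 for genes that BET inhibitors typically lower (the top line).

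Monocyte and macrophage genes went both ways: 7 of 19 measured (36.8%, beside 9.49% of all genes) were higher with RVX208, 2 were lower, and the median was 0.03. Of the 19, 9 had a mean of at least 5. CSF1R, the receptor for macrophage colony-stimulating factor, read 6.68, 6.65 and 6.74 with RVX208 and 5.66, 5.36 and 5.38 with OTX015, from 7.0, 6.97 and 7.09 with DMSO (difference 1.22 ± 0.08, SE; limma adjusted p = 3.2e-07). IRF8, a transcription factor of the monocyte lineage, gave 10.41, 10.34 and 10.38 against 9.73, 9.73 and 9.68, and its RVX208 mean lay 0.10 below DMSO (change -0.10, limma adjusted p = 0.32). CD86, a costimulatory protein, went opposite: 5.77, 5.89 and 5.84 with RVX208, 6.50, 6.64 and 6.42 with OTX015 and 5.17, 5.18 and 5.22 with DMSO. It differed by -0.69 ± 0.08 (SE; limma adjusted p = 5.1e-05), and CD68, a lysosomal protein of macrophages, by -0.30. CD14, the coreceptor for lipopolysaccharide, was dim in all 3 groups, at 3.12 with RVX208 and 3.16 with OTX015 (limma adjusted p = 0.87).

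Receptors for chemokines and lipid attractants had 3 of 17 higher with RVX208 (17.6%, beside 9.49% of all genes), namely GPR183, CCR2 and CCR1. In this list 1 was lower (2 without OTX015 array 1 or DMSO array 1 or 2). The lower one was GPR84, a receptor for medium-chain fatty acids, at 3.55, 3.87 and 3.51 with RVX208 and 4.75, 4.37 and 4.81 with OTX015, with DMSO at 3.50, 3.72 and 3.58. Its levels are dim, and the difference was -1.0 ± 0.15 (SE; limma adjusted p = 0.00056). Neutrophil granule genes differed at 1 of 10 (10%, beside 14.5% of all genes), AZU1 (-0.19, limma adjusted p = 0.03). This call was lost when RVX208 array 1 or 2 or any single OTX015 array was left out.

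Among genes of the HOXA-MEIS1 program, which KMT2A fusions sustain, 2 of 16 measured genes were higher with RVX208 and 4 lower. That is 37.5% called, beside 14.5% of all genes, and the median was -0.05. The lower count fell to 2 or 1 without any single RVX208 array and to 2 without OTX015 array 3 or with arrays centred on their medians. MEIS1, a homeobox partner of the HOXA factors, read 6.90, 6.94 and 7.0 with RVX208 and 7.43, 7.25 and 7.41 with OTX015, with 6.88, 6.73 and 6.74 in DMSO (difference -0.41 ± 0.08, SE; limma adjusted p = 0.0041). FLT3, the mutated receptor kinase of this line, gave 9.77, 9.87 and 9.80 with RVX208, 9.85, 9.85 and 9.91 with OTX015 and 9.86, 9.73 and 9.80 with DMSO. All 3 groups overlapped, and the interval of the difference between the compounds was -0.18 to 0.07 (limma adjusted p = 0.63).

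The BCL2 family was called at 3 of 14 measured (21.4%, beside 14.5% of all genes). BCL2 was higher with RVX208, as given above, and a second member joined it without RVX208 array 1 or OTX015 array 1 or 3. The count of higher members was 4 when dim genes were left out and 3 with median centring or a variance trend. MCL1, an antiapoptotic protein, read 8.42, 8.41 and 8.34 with RVX208 and 8.72, 8.77 and 8.73 with OTX015, from 8.12, 8.07 and 8.13 with DMSO (difference -0.35 ± 0.07, SE; limma adjusted p = 0.0051). BCL2L11 (BIM), which promotes apoptosis, gave 6.48, 6.47 and 6.51 against 6.93, 6.66 and 6.90 (difference -0.34 ± 0.09, SE; limma adjusted p = 0.018), and its call was lost without any 1 of 4 arrays, RVX208 array 1 or 2 or OTX015 array 1 or 3. Of 9 p53 targets, 22.2% were called beside 14.5% of all genes, TP53INP1 lower (-0.48) and the nuclease AEN higher (0.27). Neither was called without RVX208 array 2 or OTX015 array 3, nor AEN without RVX208 array 1 or OTX015 array 1.

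Inflammatory cytokines and NF-kB targets had 5 of 16 lower with RVX208 and 1 higher (37.5% called, beside 14.5% of all genes). Their median was 0.005. Beside IER3 and TNF, the lower ones were ICAM1, an adhesion molecule (7.31, 7.30 and 7.37 with RVX208, 8.13, 8.01 and 8.03 with OTX015 and 7.06, 7.20 and 7.22 with DMSO), CCL3 (-0.66) and CCL5 (-0.65). CXCL8, the neutrophil chemokine, was higher (0.83 ± 0.26, SE; limma adjusted p = 0.044), with dim and scattered OTX015 values of 3.18, 3.86 and 2.71, and it did not pass without OTX015 array 1 or 3, RVX208 array 1 or 2, or DMSO array 3. Interferon-stimulated genes were called at a share near that of all genes (17.4% beside 14.5%, median -0.02), lower at 3 of 23 (SLFN5 at -0.90, IRF7 at -0.31 and IRF9 at -0.27, the last not called without RVX208 array 3 or OTX015 array 3) and higher at 1 (IFITM1 at 0.37). Genes of amino acid and unfolded protein stress were lower at 3 of 15 and higher at 2 (SDF2L1 at 0.67 and PSAT1 at 0.40). That is 33.3% called, beside 14.5% of all genes. XBP1, a transcription factor of the secretory pathway, was lower, at 8.91, 8.93 and 8.82 with RVX208 against 9.26, 9.38 and 9.43 with OTX015.

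Apolipoproteins, complement and coagulation genes, the class for which RVX208 is best known in liver cells, were called at 3 of 16 measured (18.8%, near the 14.5% of all genes; 2 higher, 1 lower), and 4 of the 16 had a mean of at least 5. APOA1 read 4.46, 4.61 and 4.27 with RVX208, 4.70, 4.60 and 4.61 with OTX015 and 4.78, 4.34 and 4.60 with DMSO. Those arrays overlapped, and the difference of -0.19 had an interval of -0.59 to 0.22 (limma adjusted p = 0.61). THBD, the thrombin receptor thrombomodulin, gave 7.06, 6.98 and 6.90 with RVX208, 6.01, 6.09 and 5.80 with OTX015 and 7.62, 7.80 and 7.82 with DMSO (difference 1.01 ± 0.09, SE; limma adjusted p = 7.1e-06). CFP, properdin of the alternative complement pathway, was higher by 0.81 and lay near DMSO with RVX208, at 7.50, 7.40 and 7.36 against 7.41, 7.61 and 7.65. CFD, complement factor D, was lower with RVX208: 10.24, 10.19 and 10.16 against 10.78, 10.71 and 10.78, with 9.81, 9.92 and 9.97 in DMSO (difference -0.56 ± 0.06, SE; limma adjusted p = 4.7e-05). The count of lower genes in this list was 2 or 3 without RVX208 array 1, OTX015 array 1 or DMSO array 2. Of the aryl hydrocarbon receptor targets measured, TIPARP differed by -0.29 (limma adjusted p = 0.038), a call lost without OTX015 array 1 or 3, RVX208 array 2 or 3, or DMSO array 2 or 3.

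At 25 genes RVX208 differed from both OTX015 and DMSO, with OTX015 nearer to DMSO or on its other side. At 19 RVX208 was the highest group and at 6 the lowest. With any 1 DMSO array left out, 14 genes met these conditions, and 10 of the 25 met them in every alternative in which they were tested. HIC1, a transcriptional repressor and tumor suppressor, was one of the 10: it read 6.81, 6.81 and 6.58 with RVX208, 5.92, 6.07 and 6.13 with OTX015 and 5.82, 5.84 and 5.88 with DMSO. RVX208 lay 0.70 ± 0.09 (SE) above OTX015 (limma adjusted p = 0.00022) and 0.89 above DMSO (limma adjusted p = 0.0001), while OTX015 lay 0.19 above DMSO (limma adjusted p = 0.17). PTPRN2-AS1, a noncoding antisense gene, gave 6.81, 6.75 and 6.95 with RVX208, 6.16, 6.05 and 6.31 with OTX015 and 6.47, 6.49 and 6.55 with DMSO. The compounds stood on opposite sides of DMSO there, at 0.33 above and 0.33 below (change with OTX015 -0.33).

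Several members of this set were chosen for mention after their values were seen. MYOF, a membrane repair protein of the ferlin family, read 6.15, 6.25 and 6.12 with RVX208, 5.77, 5.77 and 5.84 with OTX015 and 5.58, 5.57 and 5.61 with DMSO (difference between compounds 0.38 ± 0.05, SE; limma adjusted p = 0.00035). MYO1G, a myosin of blood cells, gave 9.99, 9.92 and 9.84 against 9.53, 9.62 and 9.50, with 9.62, 9.57 and 9.53 in DMSO. RASGRP4, an activator of Ras in myeloid cells, differed by 0.35. ALOX5AP and LTC4S, which act in leukotriene synthesis, were each higher by 0.25, with RVX208 arrays from 7.86 to 7.95 for ALOX5AP and from 8.19 to 8.29 for LTC4S. These 5 genes met the conditions in all 20 alternatives that include DMSO.

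Of the 6 genes with RVX208 lowest, N4BP3 (-0.50) and the miRNA gene MIR1296 (-0.46) met the conditions in every alternative that tested them. The others were LCE2D (-0.70), MIR548X2 (-0.69), PRAMEF19 (-0.35) and SLFN12L (-0.35). Of the 6, MIR1296 alone had a group mean of 5 or more. Among the higher ones, MIRLET7A2 (0.86) and MIR4762 (0.49) were also dim, with every group mean under 5, and C1orf53 (0.44) had overlapping arrays.

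**Figure D4:**
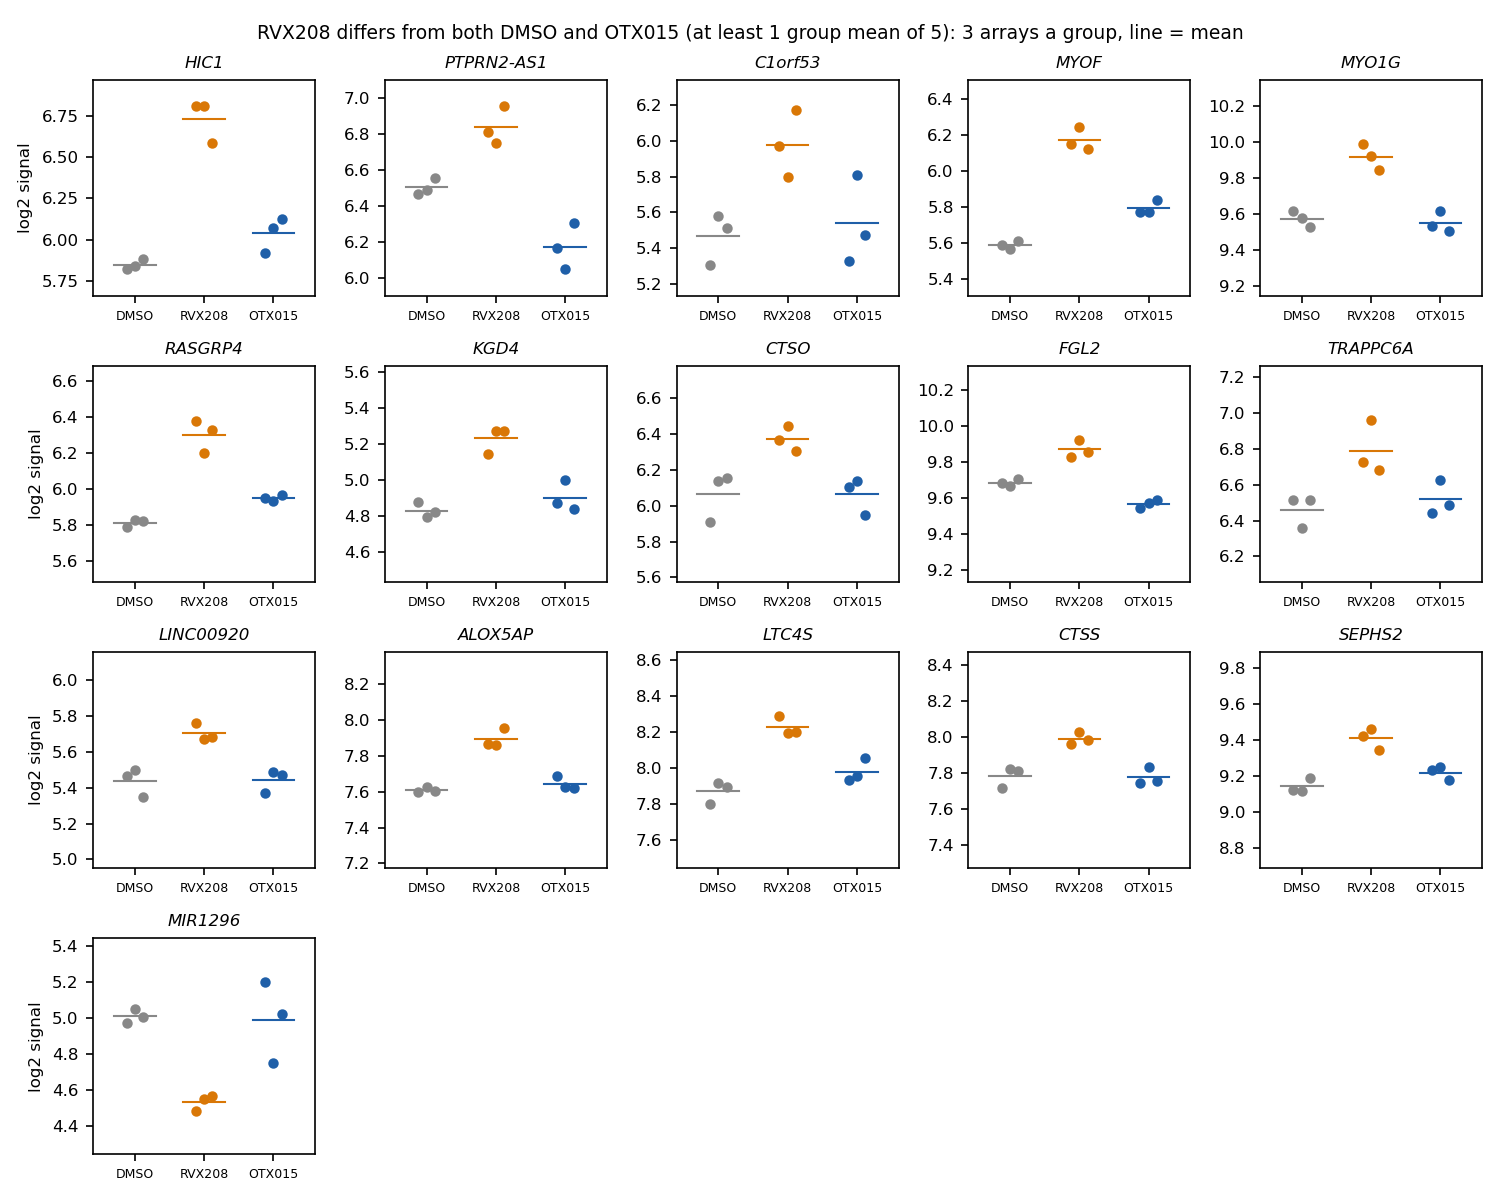
Log2 signal on each array (points) and group mean (lines) for the 16 of 25 genes where RVX208 differed from both DMSO and OTX015 and at least 1 group mean reached 5, each panel with its own vertical axis. RVX208 is the highest group in 15 panels and the lowest in MIR1296, and in PTPRN2-AS1 the compounds lie on opposite sides of DMSO.

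At further genes, picked after their values were seen, RVX208 lay near DMSO and OTX015 apart from both, as at CD180, TNF and CFP. CCNE1, cyclin E1, gave 7.48, 7.51 and 7.48 against 7.49, 7.62 and 7.52 with DMSO and 6.59, 6.68 and 6.70 with OTX015, a gap of 0.83 ± 0.08 (SE; limma adjusted p = 1.4e-05) between the compounds. OPN3, an opsin, differed by 0.74, at 8.06, 8.08 and 8.10 with RVX208, 8.02, 8.10 and 8.09 with DMSO and 7.29, 7.36 and 7.39 with OTX015. At both genes the RVX208 and DMSO arrays overlapped. TBX3, a transcription factor, differed by -0.65, at 7.20, 7.17 and 7.09 with RVX208, 7.02, 6.97 and 7.02 with DMSO and 7.80, 7.75 and 7.85 with OTX015. Its RVX208 arrays all lay above the DMSO arrays, with a difference from DMSO of 0.15 (limma adjusted p = 0.18).

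The compounds were closest, as a description, at 8 of 55 genes whose changes from DMSO averaged at least 1 in size over both compounds. A large change with OTX015 alone can meet this condition, and 51 of the 55 were called between the compounds. The smallest gap was at CST7, an inhibitor of cysteine proteases, with 5.31, 5.37 and 5.59 with RVX208, 5.41, 5.52 and 5.16 with OTX015 and 6.62, 6.46 and 6.47 with DMSO. Its arrays overlapped between compounds, with an interval of the difference from -0.14 to 0.26 (limma adjusted p = 0.77). The next genes by size of gap were WAKMAR2 (0.26), IL7R (0.28), LCT-AS1 (0.35), ASS1, the argininosuccinate synthase (0.35), CCR6, a chemokine receptor (0.41), TP53INP1 (-0.48) and POGLUT2 (0.50). Of these 7, the last 4 were called. CCR6 lost its call without RVX208 array 1 or OTX015 array 1, and TP53INP1 without RVX208 array 2 or OTX015 array 3. ASS1 and POGLUT2 lost theirs without any 1 RVX208 array or OTX015 array 1 or 3. WAKMAR2, IL7R, LCT-AS1, POGLUT2 and CCR6 were dim with both compounds, with means from 2.75 (LCT-AS1 with OTX015) to 4.96 (CCR6 with RVX208).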

How the data were processed

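Total RNA of 15 samples was hybridised to an Affymetrix whole-transcript array. The authors deposited a table of log2 signals, normalized between arrays; the log2 scale was taken from the values, and their normalization method and software: not given in the sources used here. Of 44629 features, 15835 carry 1 gene symbol and 28794 none. The feature of highest mean over the 15 arrays stood for a gene, giving 14812 genes. The difference RVX208 minus OTX015 was tested two-sided with limma 3.58.1 in R 4.3.3 (lmFit, eBayes, Benjamini-Hochberg over all genes, called at adjusted p under 0.05) in 1 fit of 5 group means over 15 arrays (10 residual degrees of freedom), checked on simulated data. No filter on dim genes was used. Genes were named by rule: the 10 largest called differences each way with a group mean of at least 5, fixed genes, up to 4 members of each list, 5 genes each way where RVX208 went beyond OTX015, and the 8 least different; all other named genes were chosen after their values were seen. The members and the 32 lists were chosen with earlier results of these data known. List medians carry no test. Alternatives covered normalization, filters, features, variance models, samples fitted and left-out arrays. Promoter and miRNA sequences are from RefSeq, GRCh38.p14.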

Additional observations from a re-analysis of the deposited data

Results flagged for a closer look

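At 2 genes both compounds were called against DMSO, on opposite sides of it, and were called apart from each other. LCE2D, a gene of the epidermal cornified envelope, differed by -0.70 (RVX208 minus OTX015; limma adjusted p = 0.00027). It read 4.04, 4.01 and 3.87 with RVX208, 4.78, 4.59 and 4.65 with OTX015 and 4.38, 4.45 and 4.31 with DMSO, all dim. PTPRN2-AS1 differed by 0.66 (limma adjusted p = 8e-05), with the array values given in the report. LCE2D kept its place among the genes with RVX208 beyond OTX015 or opposite to it in 15 of 19 alternatives and PTPRN2-AS1 in 14 of 19.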

How the results depend on the processing

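Over 21 alternatives the number of genes called between RVX208 and OTX015 ran from 1353 to 2587, around 2153. It was 1353 (906 higher, 447 lower) when only the 6 arrays of the compounds were fitted, which leaves fewer degrees of freedom, and 1613 to 2042 with single arrays left out. The replicate block gave 2023 calls. Same-numbered arrays of the compounds correlated at 0.005 to 0.013 in their deviations, which gave no sign of pairing by number. With 3 arrays a group this cannot exclude a shared day or culture. Median centring raised the share of called genes that were higher from 65.3% to 74.2% (534 lower), and quantile normalization gave 60.7%. The calls of RVX208 against DMSO, 966, became 1576 among genes with a mean level of at least 5 and 1474 with a variance trend, and 564 to 984 with single arrays left out. The 25 genes with RVX208 beyond OTX015 became 52 with a mean level of at least 5, 40 with a variance trend, 39 with array weights, and 14 to 26 with single arrays left out. The cause was not tested. Of 119 called named genes, 98 were called in every alternative, and the others lost their call in some. The median of the BCL2 family (0.01) was -0.021 to 0.063 with single arrays left out, below 0 without OTX015 array 2. That of apolipoproteins, complement and coagulation (-0.08) was 0.35 over the 4 members with a mean level of at least 5. Signals under 5 are dim, and differences there are less certain: 354 called genes had their lower mean under 5.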

Other observations

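By gene type, 2018 of 11910 protein-coding genes (16.9%), 57 of 1387 long noncoding RNAs (4.11%) and 40 of 1022 miRNA genes (3.91%) were called between RVX208 and OTX015. The latter types were dimmer, with median levels of 3.52 and 2.87 beside 5.15 for coding genes. Of the 40 miRNA genes, 8 were higher and 32 lower with RVX208. With a group mean of at least 5 there were 13, of which 2 were higher and 11 lower; this set was chosen after values were seen. The array reads total RNA at the hairpin gene, not the mature miRNA.

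MIR155, whose product acts in inflammation, read 5.67, 5.71 and 5.69 with RVX208, 6.21, 6.17 and 6.20 with OTX015 and 5.75, 5.80 and 5.61 with DMSO (difference -0.51 ± 0.07, SE; limma adjusted p = 0.00024). MIR142, of blood cells, gave 6.11, 6.12 and 6.09 against 6.87, 6.63 and 6.88, with 6.07, 5.86 and 6.09 in DMSO (difference -0.69 ± 0.16, SE; limma adjusted p = 0.01). MIR223, known in myeloid maturation, was higher with RVX208, at 6.61, 6.55 and 6.55 against 6.25, 6.25 and 6.28, with 7.04, 6.76 and 6.82 in DMSO (difference 0.31 ± 0.08, SE; limma adjusted p = 0.013). At MIR155 and MIR142 the RVX208 and DMSO arrays overlapped. The mature forms, from RefSeq on GRCh38.p14 with the seed (bases 2 to 8) in capitals, share no seed. They lie at chr21:25573983-25574006 on the plus strand (miR-155-5p), chr17:58331245-58331267 on the minus strand (miR-142-3p) and chrX:66018937-66018958 on the plus strand (miR-223-3p).
miR-155-5p: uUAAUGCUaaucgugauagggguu
miR-142-3p: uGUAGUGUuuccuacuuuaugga
miR-223-3p: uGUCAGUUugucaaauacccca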
